A study of Mus musculus with 4 samples.

Results

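ATP-binding cassette (ABC) transporter genes were examined in haematopoietic progenitors sorted from adult mouse bone marrow. The members are the genes whose array symbol is Abc followed by a subfamily letter from a to g and a number, and they came to 50 of the 24278 genes with a symbol on the array, measured by 74 of 55681 probes. Subfamily A holds 16 of them, B 10, C 10, D 4, E 1, F 3 and G 6, and the drug-efflux genes Abcb1a, Abcb1b and Abcg2 were also taken apart as a group of 3. The ABC genes Tap1, Tap2 and Cftr carry other symbols and are no members.

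The 4 groups were LSK cells (lineage-negative, high in c-kit and positive for Sca-1, the fraction that holds stem cells and multipotent progenitors) from wild-type (WT) littermates, LSK cells from SFRP5-transgenic mice, cells enriched for common lymphoid progenitors (CLP; lineage-negative, low in c-kit and in Sca-1, positive for IL7Rα) from WT littermates, and the same CLP sort from SFRP5-transgenic mice. SFRP5 is a secreted Wnt antagonist, and the series asked which genes its expression affects. The number of mice behind each sample, the promoter of the transgene and the exact age of the mice are not stated in the sources used here. Each group was 1 single-colour array, so values have no replicate check, no test was made, and "higher" and "lower" describe these 4 arrays.

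Signals are log2 intensities with the 75th percentile of the same array subtracted, so 0 is the level of that percentile. Where 4 values of a gene follow each other they stand in 1 order, LSK before CLP and within each sort WT before SFRP5. A gene was measured in a comparison where the signal passed the scanner software's "well above background" flag on both arrays, and called different at 2-fold, which is 1 on the log2 scale. Where 1 array alone passed, "at least" marks a bound against the lowest signal well above background on the other array. Where the probe's own signal there was higher, that signal was used instead. The bound is then the ratio of the 2 signals, carries the spread of dim spots and is no strict minimum. A bound against the lowest passing signal is no strict minimum either, since brighter probes could fail the flag. In WT LSK that lowest signal was -6.40, while Abca12 failed at -4.81. Between replicate spots within an array the median SD was from 0.0585 to 0.0705 log2 above the percentile and from 0.367 to 0.486 below -4, and this spread covers neither cells nor mice. Having 1 array a group limits the precision of all differences. From 65.4% to 70.2% of probes were well above background. The probe for mouse Sfrp5 stood at -0.23 (WT) and -0.31 (SFRP5) in LSK, and -0.02 and -0.00 in CLP, so it did not separate the genotypes, and whether it matches the transgene transcript was not tested. Xist, the RNA of the inactive X chromosome, was not well above background in WT, and in SFRP5 stood at 4.99 in LSK and 4.50 in CLP. Genotype therefore cannot be told apart from sex-linked expression in either sort, and array and group cannot be told apart in any comparison.

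The CLP sort also carried transcripts of other lineages. With the intensities of a marker list summed relative to the percentile, 10 erythroid markers gave 37.6 (WT) and 34.1 (SFRP5) in LSK, and 356.7 and 255 in CLP, and all 10 were above background in both CLP samples against 9 in each LSK sample. The 10 lymphoid markers gave 75.8, 121.5, 145.3 and 209.1 in the same order, with Ebf1 not above background in LSK. Dntt made up most of each lymphoid sum, at 6.09, 6.82, 6.68 and 7.25, and differed between sorts by only 0.59 in WT and 0.44 in SFRP5. Of 9 lymphoid markers measured between sorts, 7 were at least 2-fold higher in CLP and 0 lower in each genotype. Their median was 1.91 in WT and 2.24 in SFRP5. Of all genes measured, 17.8% were at least 2-fold higher in CLP in WT and 11.5% in SFRP5. The 6 neutrophil and monocyte progenitor markers gave 31.3, 53.0, 277.1 and 313.3, with Cebpe not above background in LSK. The 10 LSK and stem markers gave 135.7, 149.6, 15.8 and 20.9, with Slamf1 above background on no array. Of the lists for other cells, the 6 mast cell and basophil markers gave 1.26, 1.31, 52.6 and 36.5, with 3 above background in each LSK sample and 6 in each CLP sample. The 8 macrophage markers lay from 23.0 to 26.6, the 6 megakaryocyte markers from 4.02 to 7.91, the 5 endothelial markers from 4.30 to 6.76 and the 6 T and NK markers from 14.2 to 39.9, and in the last Cd3g was above background on no array. The T and NK sum was mostly Nkg7, at 3.71, 3.92, 5.16 and 5.28. Levels here are of bulk RNA, in which fewer cells of a type and less RNA per cell cannot be told apart.

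ABC proteins use the energy of ATP to move a substrate across a membrane, and most are exporters built from a pair of nucleotide-binding domains and a pair of membrane domains. Members of subfamilies E and F lack the membrane domains and work on ribosomes and translation instead. In bone marrow the family is best known for dye efflux: the P-glycoproteins encoded by Abcb1a and Abcb1b and the breast cancer resistance protein encoded by Abcg2 clear rhodamine and Hoechst dyes from primitive cells, which is how side-population cells are recognised. Other members export cholesterol and phospholipid (Abca1, Abcg1), serve haem synthesis (Abcb6, Abcb10) or export glutathione conjugates (Abcc1).

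Abcb1a, Abcb1b and Abcb4 are adjacent protein-coding genes in RefSeq order, on band qA1 of chromosome 5, and their signals differed between the sorts in unlike directions, as given below. Their promoters are shown for that reason, together with those of Abca1, lower in CLP, and of Abcb10 and Abcb6, higher in CLP. Each is the 200 bases before the annotated RefSeq start on GRCm38.p6, written 5′ to 3′ on the strand of the gene. Capitals mark the GC box GGGCGG, the CCAAT box CCAAT, the TATA box TATAAA and the E-box CACGTG, searched on both strands, and a base may count for more than 1 motif. The windows are chr5:8566891-8567090 (plus strand) for Abcb1a, chr5:8797947-8798146 (plus) for Abcb1b, chr5:8893521-8893720 (plus) for Abcb4, chr4:53159896-53160095 (minus) for Abca1, chr8:123983123-123983322 (minus) for Abcb10 and chr1:75180393-75180592 (minus) for Abcb6.
Abcb1a: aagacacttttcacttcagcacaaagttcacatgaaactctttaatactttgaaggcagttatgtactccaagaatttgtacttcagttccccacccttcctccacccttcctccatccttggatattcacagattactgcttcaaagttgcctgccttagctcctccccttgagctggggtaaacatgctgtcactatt
Abcb1b: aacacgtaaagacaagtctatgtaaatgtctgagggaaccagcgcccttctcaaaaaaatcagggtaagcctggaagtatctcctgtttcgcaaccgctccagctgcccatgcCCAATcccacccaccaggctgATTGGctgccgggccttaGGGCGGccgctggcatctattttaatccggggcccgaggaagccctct
Abcb4: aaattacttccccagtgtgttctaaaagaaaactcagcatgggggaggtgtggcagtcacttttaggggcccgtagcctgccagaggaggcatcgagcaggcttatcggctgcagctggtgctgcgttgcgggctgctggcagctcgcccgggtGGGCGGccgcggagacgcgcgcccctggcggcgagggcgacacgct
Abca1: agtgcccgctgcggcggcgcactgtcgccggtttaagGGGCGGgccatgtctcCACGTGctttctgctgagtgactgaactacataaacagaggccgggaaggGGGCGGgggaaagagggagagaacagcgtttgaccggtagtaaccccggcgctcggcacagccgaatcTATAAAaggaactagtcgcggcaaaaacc
Abcb10: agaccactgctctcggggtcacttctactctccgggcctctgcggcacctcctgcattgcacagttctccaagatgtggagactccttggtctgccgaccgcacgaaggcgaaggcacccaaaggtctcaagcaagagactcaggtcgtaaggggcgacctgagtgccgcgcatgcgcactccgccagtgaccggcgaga
Abcb6: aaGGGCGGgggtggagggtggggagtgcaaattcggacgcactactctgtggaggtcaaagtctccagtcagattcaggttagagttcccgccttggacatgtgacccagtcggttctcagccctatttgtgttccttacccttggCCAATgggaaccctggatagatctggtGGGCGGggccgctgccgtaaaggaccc
The promoter of Abcb1a held none of these motifs, had 43.5% G and C and contained 0 CpG pairs. Its neighbour Abcb1b had 55.5% G and C, 9 CpG pairs, a GC box 48 bases before the start and CCAAT boxes at 87 and 66 bases. The promoter of Abcb4 had 65% G and C, 17 CpG pairs and a GC box at 46 bases. Abca1 combined a TATA box 29 bases before its start with an E-box at 147 bases and GC boxes at 163 and 97 bases. Abcb6 held GC boxes at 198 and 27 bases and a CCAAT box at 54 bases, and Abcb10 held none of the motifs although 62% of its bases were G or C. Matches are descriptions of these letters and show no binding.

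Promoters of 38 of the 50 members were found in the RefSeq table, 45 in all because some genes have several starts. A GC box was present in 19 of the 45, against 31% of the 32851 promoters of the table, and a CCAAT box in 9, against 29.3%. A TATA box was present in 4 (9.96% of the table) and an E-box in 4 (5.26%), as was the GATA site AGATAA (7.8%), also searched on both strands. Taking 1 promoter a gene, the 20 genes above background on all 4 arrays had a median of 15.5 CpG pairs, ranging from 0 to 32. The 9 genes above background on no array had a median of 5, ranging from 2 to 12, and the median of the whole table was 5.

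The share of members detected was close to that of all genes and ranged widely over the subfamilies. Of the 50 members, 37 were well above background on the WT LSK array and 36 on the SFRP5 LSK array, against 32 and 36 on the arrays of the CLP sort. That is 74%, 72%, 64% and 72%, beside 72.1%, 68.7%, 68.9% and 69.4% of all genes. Members above background on all 4 arrays numbered 30, or 60% against 62.6% of all genes, and 10 (20%, against 22.5%) were above it on no array.

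Subfamily A, mostly full-length lipid transporters, had the lowest share above background on all 4 arrays among the subfamilies with over 1 member, 6 of 16. The 6 were Abca1, Abca2, Abca3, Abca7, Abca14 and Abca17, and 6 others (Abca6, Abca8b, Abca9, Abca12, Abca15 and Abca16) were above it on none. Both neighbouring sets on chromosomes 11 and 7 were dim: of the row Abca8b, Abca8a, Abca9, Abca6 and Abca5 only Abca8a and Abca5 were above background on any array, and of the row Abca14, Abca15 and Abca16 only Abca14 was. Subfamilies B and C each had 7 of 10 above background on all 4 arrays, D 3 of 4, E 1 of 1, F 3 of 3 and G 3 of 6. The members above background nowhere outside subfamily A were Abcb5, Abcb11 (the bile salt export pump of liver), and the adjacent genes Abcg5 and Abcg8, whose products pair to export sterols in liver and gut. For a dark member the arrays give a bound and not an absence.

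**Figure D1:**
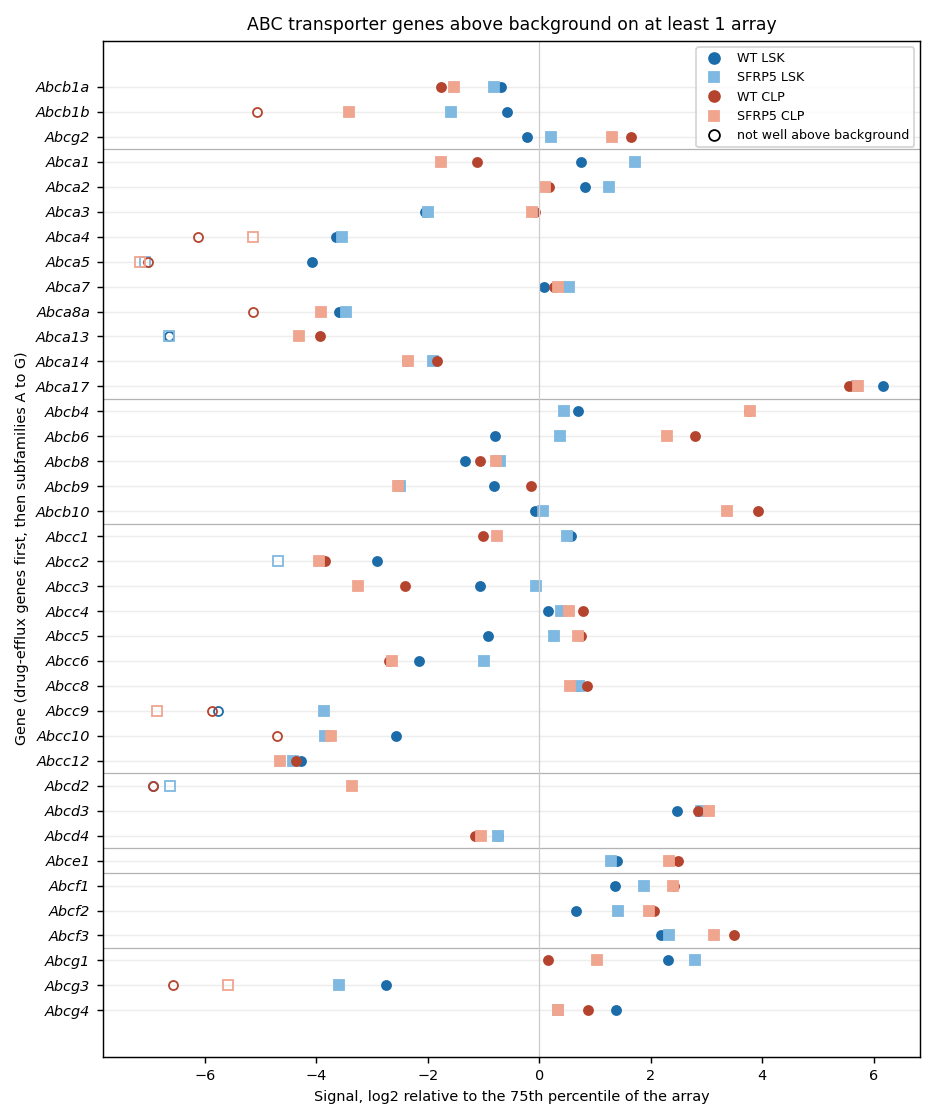
Signal of 38 of the 40 ABC transporter genes above background on at least 1 array, in log2 units from the 75th percentile of each array (horizontal axis), 1 symbol per array; blue marks LSK, red CLP, dark circles WT and light squares SFRP5, and open symbols are not well above background. Positions are to be compared within a gene, where for example both CLP values of Abcb10, 3.92 and 3.37, lie to the right of both LSK values, -0.08 and 0.06.

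The drug-efflux genes did not move together. Abcg2 was higher in CLP than in LSK, whereas Abcb1a and Abcb1b were lower there. Abcg2 stood at -0.22 (WT) and 0.22 (SFRP5) in LSK, and 1.64 and 1.30 in CLP. Both CLP values lay above both LSK values, by 3.63-fold in WT and 2.12-fold in SFRP5, and the latter fell under 2-fold with the normexp background correction (0.87 on the log2 scale) and with the authors' deposited signals (0.90).

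Abcb1a stood at -0.68 (WT) and -0.82 (SFRP5) in LSK, and -1.77 and -1.52 in CLP. Both CLP values were the lower ones, with log2 differences between sorts of -1.09 in WT and -0.70 in SFRP5, and the difference in WT was under 2-fold with normexp (-0.61) and with quantile normalization (-0.90). Abcb1b stood at -0.59 (WT) and -1.58 (SFRP5) in LSK and at -3.42 in SFRP5 CLP, while its -5.06 in WT CLP was not well above background. Against that dim signal it was 22.3-fold lower in WT CLP than in WT LSK. In SFRP5 it was 3.58-fold lower in CLP than in LSK (-0.75 log2 with normexp, under 2-fold). The P-glycoprotein genes are closely related paralogues, and how far their probes detect each other's transcripts was not tested.

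By genotype, Abcb1b was at the edge of the call in LSK, 1.996-fold lower in SFRP5 (-0.997 on the log2 scale, and -1.13 with the deposited signals). In CLP it was above background in SFRP5 alone, at least 3.12-fold higher than in WT. Abcb1a differed by -0.13 in LSK and 0.25 in CLP, and Abcg2 by 0.44 and -0.34. None of the 3 was called in the same direction in both sorts.

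The mitochondrial half-transporters Abcb10 and Abcb6 were higher in CLP in both genotypes, which Abcb8 was not. Abcb10, an inner-membrane protein needed for haem synthesis in red cell precursors, stood at -0.08 (WT) and 0.06 (SFRP5) in LSK, and 3.92 and 3.37 in CLP. The CLP values were 16.0-fold and 9.90-fold above the LSK values of the same genotype. Abcb6, described as a porphyrin transporter, stood at -0.80, 0.36, 2.80 and 2.29 in the same order, which is 12.1-fold higher in CLP in WT and 3.80-fold in SFRP5.

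Abcb8, a subunit of a mitochondrial potassium channel complex that also acts in iron export, was near -1 throughout, at -1.33, -0.70, -1.07 and -0.77, and its differences between sorts were 0.26 and -0.07.

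The genes that work beside them in haem and iron-sulphur synthesis were higher in CLP as well. Of 21 such genes, all measured, 18 were at least 2-fold higher in WT CLP than in WT LSK and 0 lower, with a median of 2.99, and 15 were higher and 0 lower in SFRP5, with a median of 2.29. Of all genes measured, 17.8% were at least 2-fold higher and 14.3% lower in WT CLP. In SFRP5 the shares were 11.5% and 11%. These shares also stand beside the lists compared between sorts below. Fech, which puts iron into the haem ring, differed by 5.30 in WT and 3.43 in SFRP5, and Tmem14c, a porphyrinogen carrier of the inner membrane, by 4.74 and 2.29. Iscu, the scaffold of iron-sulphur assembly, was among those that did not differ by 2-fold, at -0.38 and 0.19. The summed erythroid markers were higher in CLP too, as given above, and their part in these differences was not tested.

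Among the exporters of cholesterol and phospholipid, Abca1 and Abcg1 were lower in CLP. Abca1, which loads cholesterol onto lipid-poor apolipoprotein, stood at 0.75 (WT) and 1.72 (SFRP5) in LSK, and -1.13 and -1.77 in CLP. It was 3.66-fold lower in CLP in WT and 11.2-fold lower in SFRP5. Abcg1, which passes cholesterol to mature lipoprotein particles, stood at 2.31, 2.79, 0.16 and 1.04, which is 4.43-fold and 3.36-fold lower in CLP. In both genes both CLP values lay below both LSK values. Abca7, a relative of Abca1 in phagocytosis and lipid handling, was the member of subfamily A that varied least, at 0.09, 0.54, 0.27 and 0.34.

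Abcb4, the phosphatidylcholine translocator of bile, went the other way, as did Abca3, the lipid pump of lung surfactant. Abcb4 stood at 0.69 (WT) and 0.44 (SFRP5) in LSK, and 3.77 and 3.77 in CLP, 8.45-fold and 10.08-fold higher in CLP. A second probe, designed to an Ensembl transcript, gave 6.48-fold and 19.9-fold. Abca3 stood at -2.04, -1.998, -0.08 and -0.13, 3.89-fold and 3.65-fold higher in CLP. By genotype the brightest probes of both genes were within 1.19-fold in either sort, whereas the second Abcb4 probe was 3.11-fold lower in SFRP5 LSK than in WT LSK.

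Abcg4, an Abcg1-like sterol exporter of brain and haematopoietic progenitors, depended on the probe. Its brightest probe, designed to an Ensembl transcript, stood at 1.37 (WT) and 0.33 (SFRP5) in LSK, and 0.87 and 0.33 in CLP, with log2 differences between sorts of -0.50 and 0.00. A RefSeq probe stood at -2.51, -3.42, 1.43 and 0.69, which is 15.4-fold and 17.3-fold higher in CLP. The other RefSeq probe was not well above background in LSK and stood at 0.58 and -0.07 in CLP, at least 126-fold and 46.2-fold higher there. No direction between sorts is therefore given for Abcg4.

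Regulators and partners of these exporters did not share 1 direction. Of 15 genes of the LXR and cholesterol efflux list, 2 were at least 2-fold higher in CLP and 1 lower in each genotype. Nr1h3, which encodes the receptor LXRα, differed by -1.22 in WT and -0.29 in SFRP5, and Lpcat3, which remodels phospholipids, by 1.32 in WT and 1.32 in SFRP5. Of 19 measured genes of cholesterol synthesis and uptake, 3 were higher and 1 lower in WT, and 2 higher and 1 lower in SFRP5.

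In subfamily C, the multidrug resistance-associated proteins and their relatives, 2 of the 10 genes were lower in CLP in both genotypes. Abcc1, which exports glutathione conjugates and leukotriene C4, stood at 0.57 (WT) and 0.50 (SFRP5) in LSK, and -1.01 and -0.76 in CLP, 2.97-fold and 2.39-fold lower. Abcc3, an exporter of bile salts and glucuronides, stood at -1.06, -0.06, -2.41 and -3.26, 2.55-fold and 9.18-fold lower, of which the first was under 2-fold with normexp (-0.67). Most genes of glutathione conjugation went the other way, with 9 of 12 measured at least 2-fold higher in CLP and 0 lower in WT, and 7 of 13 and 0 in SFRP5. Below 0 but within 2-fold were 3 in WT and 2 in SFRP5, with Ltc4s at -0.34 and -0.45. Among the higher genes Gstm5, a glutathione transferase, differed by 3.02 in WT, and Nqo1, a quinone reductase, by 2.56 in SFRP5.

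Abcc5, an exporter of cyclic nucleotides, has 4 probes, all above background on all 4 arrays. The brightest stood at -0.93 (WT) and 0.27 (SFRP5) in LSK, and 0.74 and 0.70 in CLP. A probe printed at 10 spots gave -1.05 ± 0.0950, -1.34 ± 0.130, -0.07 ± 0.0748 and 0.04 ± 0.0872 (mean and SD of spots on 1 array). By genotype in LSK the brightest probe was 2.29-fold higher in SFRP5 and another probe 2.45-fold higher. The 10-spot probe was 1.22-fold lower and the remaining probe 3.003-fold lower. The difference between the probes was larger than the spread of the 10 spots.

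Abcc6, mutated in pseudoxanthoma elasticum, stood at -2.15 (WT) and -0.99 (SFRP5) in LSK, and -2.69 and -2.64 in CLP, so that SFRP5 LSK was above the other 3 arrays. It was 3.14-fold lower in CLP in SFRP5 (under 2-fold with normexp, -0.91) and 1.45-fold lower in WT, and its other probe was not well above background on any array. Abcc10, a broad drug exporter, stood at -2.58, -3.84 and -3.73 in WT LSK, SFRP5 LSK and SFRP5 CLP, was not well above background in WT CLP and was at least 4.38-fold lower there than in WT LSK. Abcc12, of unsettled function, ranged from -4.66 to -4.28. Abcc4, a cyclic nucleotide and prostaglandin exporter, and Abcc8, the sulphonylurea receptor, stayed within 2-fold in all 4 comparisons by their brightest probes. A second Abcc8 probe was at least 8.98-fold lower in WT CLP than in WT LSK and 2.54-fold lower in SFRP5 LSK than in WT LSK.

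In subfamily D, Abcd3 and Abcd4 were even across the arrays. Abcd3, which carries branched-chain and dicarboxylic fatty acids, stood at 2.48 (WT) and 2.90 (SFRP5) in LSK, and 2.84 and 3.04 in CLP. Abcd4, a lysosomal protein of cobalamin release, varied least, at -0.74, -0.74, -1.15 and -1.04. Abcd2, a peroxisomal carrier of very long-chain fatty acids, was above background in SFRP5 CLP alone, at -3.37, at least 7.50-fold above WT CLP and at least 9.28-fold above SFRP5 LSK. Of 13 measured genes for peroxisome assembly and fatty acid oxidation, 4 were at least 2-fold higher in CLP and 0 lower in WT, and 3 were higher and 2 lower in SFRP5. Acsl1, which activates long-chain fatty acids, differed by 1.72 and 1.84.

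All 4 members that act in translation were higher in CLP. Abce1, which splits ribosomes after termination, stood at 1.39 (WT) and 1.28 (SFRP5) in LSK, and 2.49 and 2.33 in CLP, 2.15-fold and 2.07-fold higher. Abcf1, a partner of initiation factor eIF2, stood at 1.37, 1.87, 2.42 and 2.40, and Abcf2 at 0.65, 1.40, 2.06 and 1.96. Abcf3 stood at 2.18, 2.33, 3.50 and 3.14.

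For each of these 4 genes both CLP values lay above both LSK values, but the size was close to the threshold. In WT the log2 differences between sorts were 1.11 for Abce1, 1.06 for Abcf1, 1.41 for Abcf2 and 1.31 for Abcf3. With the deposited signals they were 0.69, 0.64, 0.99 and 0.90, under 2-fold, with the direction kept. In SFRP5 the 3 Abcf genes were within 2-fold, from 0.53 to 0.81, although a second Abcf1 probe gave 1.75. Of 13 partners in ribosome recycling and Gcn2 signalling, 4 were at least 2-fold higher and 1 lower in CLP in WT, and 4 higher and 2 lower in SFRP5. Eif2s1, the alpha subunit of eIF2, differed by 1.22 in WT.

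Across the family, 31 members were measured between the sorts in WT. Of these, 10 were at least 2-fold higher in CLP, 32.3% against 17.8% of all genes measured, and 5 were lower, 16.1% against 14.3%. The higher ones were Abca3, Abcb4, Abcb6, Abcb10, Abcc5, Abce1, Abcf1, Abcf2, Abcf3 and Abcg2, and the lower ones Abca1, Abcb1a, Abcc1, Abcc3 and Abcg1. Abcc5 passed 2-fold in WT by its brightest probe alone, at 1.67 log2, while its other 3 probes gave 0.97, -0.09 and 0.92. The median difference was 0.26, beside 0.02 for all genes. With the authors' deposited signals, under which the all-gene median shifts by -0.41, the split was 6 higher and 8 lower and the median -0.15. The number higher and the sign of the family median thus turned on the scaling.

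In SFRP5 mice 33 members were measured between the sorts, of which 7 were higher in CLP, 21.2% against 11.5% of all genes, and 7 lower, 21.2% against 11% of all genes. Among the higher were Abca3, Abcb4, Abcb6, Abcb10, Abce1 and Abcg2. The 7 lower were Abca1, Abca2 (a lipid transporter of late endosomes, 2.23-fold, but 1.62-fold by a second probe), Abcb1b, Abcc1, Abcc3, Abcc6 and Abcg1. The median was -0.04, beside 0.02 for all genes.

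The differences between sorts resembled each other in the 2 genotypes, which share no array in this comparison. Of 30 members measured on all 4 arrays, 23 had the same sign in both (76.7%, beside 69.1% of 15196 genes). Pearson's r across these 30 genes was 0.90 and Spearman's rho 0.92, beside 0.63 and 0.56 across all genes, as a description of genes that share arrays and are not independent. Both differences passed 2-fold upward for 6 genes (Abca3, Abcb4, Abcb6, Abcb10, Abce1 and Abcg2) and downward for 4 (Abca1, Abcc1, Abcc3 and Abcg1), and 0 passed it in opposite directions. Of the 15196 genes, 1065 passed it upward in both, 806 downward in both and 131 in opposite directions.

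**Figure D2:**
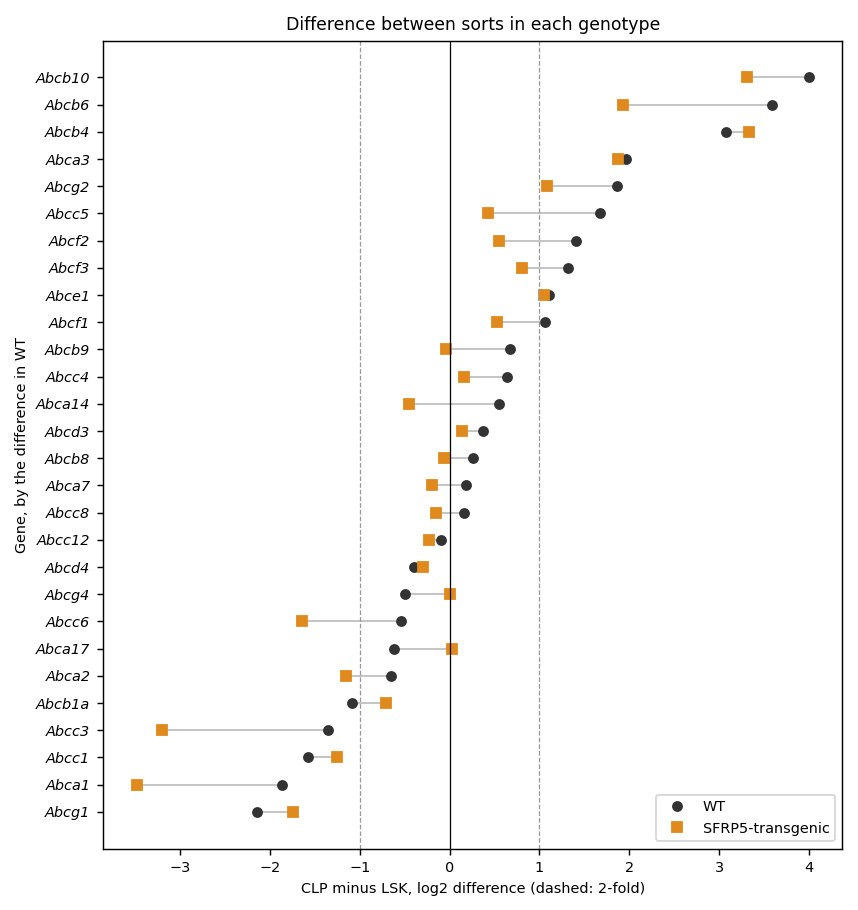
Log2 difference between CLP and LSK (horizontal axis) for 28 of the 30 ABC transporter genes above background on all 4 arrays, ordered by the difference in WT; dark circles are WT, orange squares SFRP5-transgenic, and dashed lines mark 2-fold. Abcb10, Abcb6 and Abcb4 lie farthest to the right, and Abca1, Abcc3 and Abcg1 lie to the left of the 2-fold line in both genotypes.

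Genes above background in 1 sort alone gave bounds. In WT, 7 members had a bound of at least 2-fold between the sorts, 1 higher and 6 lower in CLP. In SFRP5 there were 5, of which 2 were higher and 3 lower. Of the members above background in 1 sort alone, all reached 2-fold in WT and all but Abcc2 in SFRP5. Among all genes above background in 1 sort alone, 74.5% of 2120 in WT and 74.6% of 2009 in SFRP5 reached it. Abca13, a very large subfamily A protein, was higher in CLP in both genotypes, by at least 5.54-fold and 4.79-fold. Abca4, the retinoid flippase of photoreceptors, was lower by at least 5.56-fold and 3.05-fold, and Abcg3, a rodent relative of Abcg2, by at least 11.5-fold and 3.97-fold.

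The other bounds rested on 1 genotype. In WT, Abca5 was lower in CLP by at least 4.58-fold and Abca8a by at least 2.90-fold, in addition to Abcb1b and Abcc10 above. In SFRP5, Abcc9, the sulphonylurea receptor subunit of vascular potassium channels, was lower in CLP by at least 5.42-fold. Abcc2, the canalicular conjugate exporter, was at least 1.68-fold higher in SFRP5 CLP than in SFRP5 LSK, under the threshold.

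SFRP5 and WT differed in few members. In LSK 35 members were measured and 3 were at least 2-fold higher in SFRP5, 8.57% against 6.58% of all genes. These were Abcb6 (2.24-fold), Abcc5 (2.29-fold by its brightest probe) and Abcc6 (2.25-fold). Another 3 were lower, 8.57% against 7.19% of all genes: Abcb9 (3.21-fold), Abcc10 (2.41-fold) and Abcg4 (2.06-fold). Both shares were near the background. The split of 3 higher and 3 lower became 4 and 2 with quantile normalization and 0 and 1 with normexp, under which only Abcb9 was called. The median was 0.14, beside 0.02 for all genes.

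The members just inside and outside the threshold in LSK were close together. Abcg4 differed by -1.04 inside it. Outside it were Abcb1b at -0.997, Abcc3 at 0.9998 (1.14 with quantile normalization) and Abca1 at 0.97. All 3 members above background on 1 of the LSK arrays alone had a bound of at least 2-fold. Abcc9 was at least 3.76-fold higher in SFRP5, and Abca5 and Abcc2 were lower by at least 5.67-fold and 3.44-fold. Among all genes above background on 1 of these arrays alone 72.4% reached 2-fold.

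In CLP 32 members were measured, 0 were at least 2-fold higher in SFRP5, against 4.26% of all genes, and 1 was lower, 3.12% against 4.3% of all genes. The median was -0.09, beside -0.04 for all genes. Among all genes above background on 1 of the CLP arrays alone, 64.4% had a bound of at least 2-fold. Of the members above it on 1 alone, all but Abcc10 did. These 3 were higher in SFRP5, Abca8a by at least 2.32-fold, Abcb1b by at least 3.12-fold and Abcd2 by at least 7.50-fold. Abcc10 was at least 1.96-fold higher.

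Abcb9 was the only member called for genotype in both sorts. It encodes TAPL, a lysosomal peptide transporter related to Tap1 and Tap2. It stood at -0.82 (WT) and -2.50 (SFRP5) in LSK, and -0.15 and -2.54 in CLP, so that both SFRP5 values lay below both WT values. The difference was -1.68 in LSK and -2.40 in CLP, it rests on 1 probe of 1 spot per array, and it was past 2-fold under each alternative setting tried. Across all genes 90 were lower by 2-fold in both sorts. Sex-linked expression differed between the same arrays, and its part in this difference was not tested.

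The genotype differences of the members were not alike in the 2 sorts. Of 30 members, 10 had the same sign in both (33.3%, beside 47.1% of all genes), with an r of 0.36 and a rho of -0.04 across genes. The sorts share no array in this comparison. Abcb6, Abca1 and Abcc3 were higher in SFRP5 than in WT in LSK and lower in CLP.

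**Figure D3:**
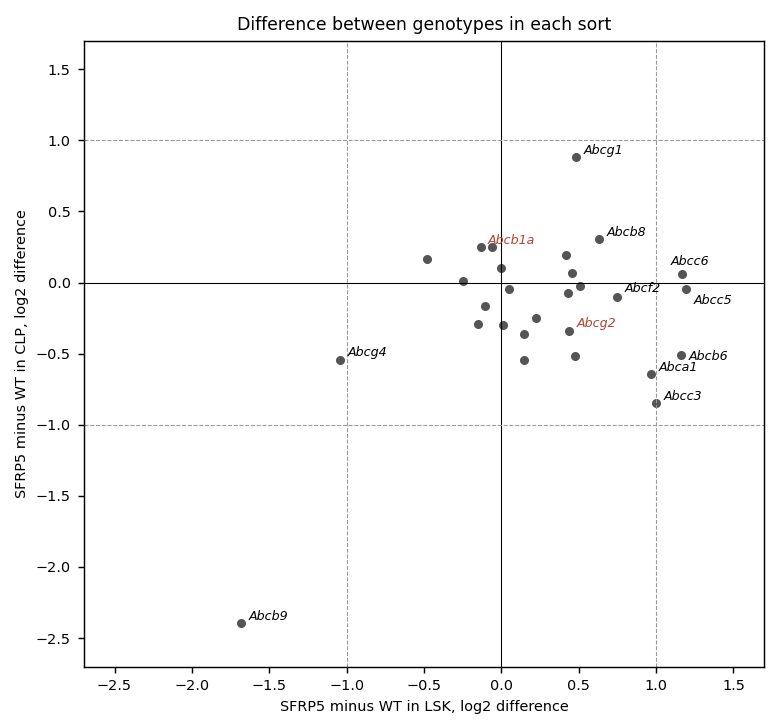
Log2 difference between SFRP5 and WT in LSK (horizontal axis) against that in CLP (vertical axis) for 28 of the 30 ABC transporter genes above background on all 4 arrays; each point is a gene, dashed lines mark 2-fold, and drug-efflux genes are named in red. Abcb9, at -1.68 and -2.40, lies apart at the lower left, and Abcb6, Abcc3 and Abca1 lie right of 0 and below it.

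How a gene was probed mattered for several members. Of the 50 genes, 18 have over 1 probe, and in 5 of these (Abca14, Abca17, Abcb8, Abcc6 and Abcc12) 1 probe was above background on all 4 arrays and another on none. Abca17, a gene next to Abca3 on chromosome 17, is the widest case, with 1 probe from 5.55 to 6.17 and the other from -6.77 to -5.30, below background, both assigned to the same RefSeq transcript. Where all probes with a measured value could be compared between sorts, their signs were the same in 4 of 7 genes in WT and in 7 of 8 in SFRP5. The 7 include Abcg4, whose probes gave 0.00 and 4.11, so sharing a sign is no agreement in size there. Between genotypes they were the same in 4 of 8 genes in LSK and 2 of 7 in CLP.

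**Figure D4:**
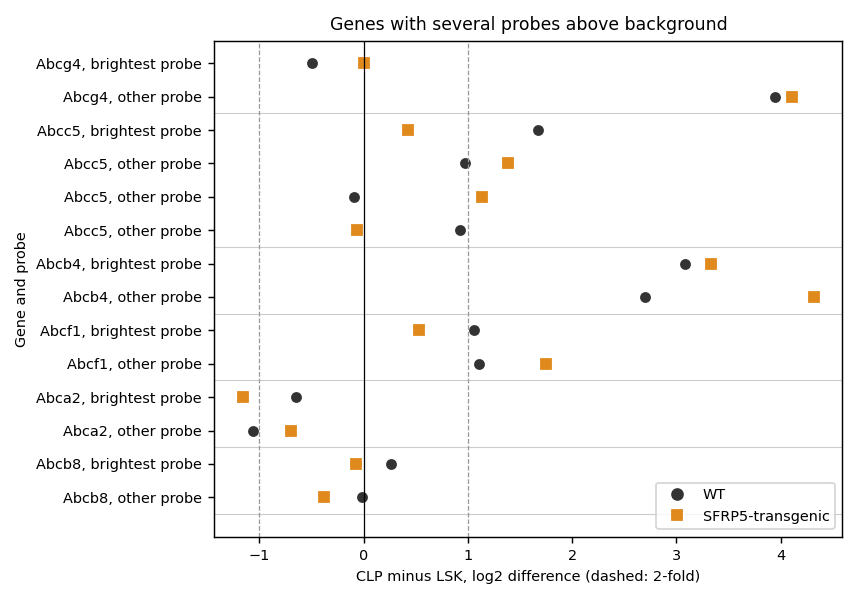
Log2 difference between CLP and LSK (horizontal axis) for each measured probe of 6 ABC transporter genes with several probes; dark circles are WT, orange squares SFRP5-transgenic, dashed lines mark 2-fold, and each line of the vertical axis is 1 probe. Both probes of Abcb4 lie to the right of 0, while those of Abcg4 lie at -0.50 and 3.94 in WT.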

How the data were processed

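Total RNA of 4 sorted samples was measured on 1-colour Agilent arrays, all on 1 slide per the file headers. RNA was extracted with a column kit per the labels' protocols, and Cy3-labelled cDNA was amplified from 6.1 ng of total RNA, a step whose effect on single genes was not measured. The deposited scanner files hold spot intensity, background-subtracted and detrended. The program was Agilent Feature Extraction, version 10.10.1.1 in the file headers and 10.10 in the submitters' processing notes. The signals that the authors deposited in a table are the same intensity times 1 factor per array, set in a way not given in the sources used here. Probes are annotated on mm9 per the file headers.

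From these, log2 of the processed intensity of 59305 spots outside the controls was taken relative to the 75th percentile of each array. Spots with an outlier flag were left out (none of a member), spots of a probe were averaged, and the probe with the highest mean stood for a gene. A gene above background on 1 array alone, with none of its probes above on the other, received a bound against the lowest signal well above background there, or its own signal if higher. Symbols and gene order were taken from RefSeq (GRCm38.p6) through Entrez IDs, which matched 74 of 74 member probes, and promoters from the RefSeq table of the same build.

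Comparisons are differences of 2 arrays, with no test. Members, gene lists and cell type markers were chosen with earlier results of these data known. The rule for named genes took 34 members: the drug-efflux genes, those at least 2-fold different or bounded in any comparison, and the least variable of each subfamily. Other members are named where a sentence counts them, chosen after their values were seen. Some genes are not reported here, though they stay in the counts and medians. From each other list the text draws on the 2 highest and 2 lowest differences of a comparison. Alternatives were normexp background correction (offset 50, limma 3.58.1 in R 4.3.3), quantile normalization, the deposited signals, the mean of a gene's probes, no filter on dim probes, above background on all 4 arrays, and, added after seeing the data, the brightest probe with a RefSeq accession. Normexp was run on the median spot signal, as the scanner files read here have no mean signal column. Calculations used Python 3.11.15 with pandas 2.3.3, and the calls were tested on simulated data.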

Additional observations from a re-analysis of the deposited data

Results flagged for a closer look

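In 3 members the difference between SFRP5 and WT was at least 0.5 log2 upward in LSK and at least 0.5 downward in CLP, with 1 array per group, so the difference between the sorts was not tested. The share of all genes meeting this rule is not given here. Of 15196 genes, 47.1% had the same sign in both sorts, and 207 passed 2-fold in opposite directions. Abca1 differed by 0.97 in LSK and -0.64 in CLP, a change of -1.61. Abcb6 differed by 1.16 and -0.51, a change of -1.67. By genotype in CLP all 10 erythroid markers were below 0 as well, with a median of -0.60, while in LSK 4 were above 0 and 5 below. Their part in the Abcb6 values was not tested. Abcc3 differed by 0.9998 and -0.85, a change of -1.85.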

How the results depend on the processing

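With 1 array per group, no replicate could be left out and no slide or scan block could be fitted. No paired analysis was possible because each group has 1 sample. Of 738 values of named members over 7 settings, 700 stayed on the same side of 2-fold, 29 kept the direction but fell under it, 7 kept it and passed it, and 2 passed it the other way. Of all 738, 29 changed sign, 27 of them under 2-fold before and after. The other 2 were Abcg4 between sorts in WT, at -0.50, which became 3.94 with the brightest RefSeq probe and 1.72 with the mean of its probes. For SFRP5 against WT in LSK, normexp gave 0 members higher and 1 lower, in place of 3 and 3, and dropping the filter on dim probes gave 7 and 6. For the same comparison in CLP, no filter gave 3 higher and 2 lower in place of 0 and 1. For CLP against LSK in WT (10 higher, 5 lower, median 0.26), the deposited signals gave 6 higher, 8 lower and a median of -0.15, normexp gave 3 lower, and no filter gave 11 lower and a median of 0.0694. For CLP against LSK in SFRP5 (7 higher, 7 lower, median -0.04), no filter gave 11 higher and 12 lower, and the deposited signals gave a median of -0.23. Dropping the filter takes in genes below background, where replicate spots differ most. The cause of the other shifts was not tested. The deposited scaling moved the median of all genes by -0.13 for genotype in LSK, 0.10 in CLP, -0.41 between sorts in WT and -0.19 in SFRP5. With the brightest RefSeq probe, a choice made after seeing the data, Abcg4 differed between sorts by 4.11 in SFRP5 in place of 0.00, and 11 members were higher in WT CLP in place of 10 and 8 in SFRP5 CLP in place of 7. Signal over background limits the 10 members above it on some arrays only, whose differences are bounds where 1 array is dim, and the 10 above it on none, which give no difference.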

Other observations

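The ABC genes with symbols outside the family rule include the peptide transporter of antigen presentation, made of Tap1 and Tap2, relatives of Abcb9. Tap1 stood at -1.39 (WT) and -0.90 (SFRP5) in LSK, and -1.15 and -3.29 in CLP, with a log2 difference between genotypes of 0.48 in LSK and -2.14 in CLP. Its probe is printed at 10 spots per array, and the spots without an outlier flag lay between -3.78 and -2.98 in SFRP5 CLP (SD 0.213 over 9 spots) and between -1.28 and -1.01 in WT CLP (SD 0.105 over 10 spots). Tap2 stood at 2.42, 2.57, 1.52 and 1.72 in the same order and differed between genotypes by 0.15 in LSK and 0.20 in CLP. Of 7 partners in peptide loading, all measured, 0 differed by 2-fold between genotypes in either sort. Of all genes measured, 6.58% were at least 2-fold higher and 7.19% lower in SFRP5 in LSK. In CLP the shares were 4.26% and 4.3%. These shares also stand beside the lists compared between genotypes below. Cftr, the chloride channel of the family, was above background on no array.

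Of 13 genes for xenobiotic and stress sensing, 10 were measured between the genotypes in each sort, with 1 at least 2-fold higher and 1 lower in LSK and 1 higher and 0 lower in CLP. Pparg, a lipid-sensing nuclear receptor, differed by -1.22 in LSK and 2.20 in CLP. Between the sorts 10 were measured in WT, with 2 at least 2-fold higher in CLP and 2 lower, and 9 in SFRP5, with 2 higher and 1 lower. Among the higher was Nfe2l2, which encodes the oxidative stress factor NRF2, by 1.05 in WT and 1.34 in SFRP5. Of the 21 genes of the haem and iron-sulphur list, 4 were at least 2-fold higher in SFRP5 than in WT in LSK and 2 lower, with a median of -0.07. In CLP 0 were higher and 3 lower, with a median of -0.67. Fam210b, a mitochondrial protein of erythroid cells, differed by genotype by 1.97 in LSK and -1.13 in CLP, and Tmem14c by 1.44 and -1.01 (1 array per group, not tested). Uros and Alas2 went the other way in LSK, at -2.10 and -1.67, and differed by -0.73 and -0.93 in CLP.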
